A study of Mus musculus with 5 samples.

Results

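The respiratory chain and ATP synthase are built from 2 genomes, and both sets of transcripts were counted here in mouse blood cells. Members were taken by symbol from the 33696 genes of the deposited matrices: 91 nuclear genes whose symbols begin with Ndufa, Ndufb, Ndufc, Ndufs or Ndufv, Uqcr, Cox4 to Cox8 or Atp5, and the 13 protein-coding genes of mitochondrial DNA, 104 in all. The pseudogene Cox5b-ps and the muscle isoform gene Cox6a2 were left out. The nuclear members are 40 complex I subunit genes, 8 complex I assembly factor genes (Ndufaf), 8 complex III genes, 18 complex IV genes including Ndufa4, and 17 complex V genes. The choice used names and no measured value.

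The study sequenced single peripheral blood mononuclear cells of C57BL/6N mice in a mouse model of HFpEF, the form of heart failure in which the ejection fraction is preserved. Chow-fed mice gave the libraries chow 1 and chow 2. A high-fat diet given for 15 weeks together with L-NAME, which blocks nitric oxide synthases, gave the libraries HFD + L-NAME 1 and HFD + L-NAME 2. The same regimen with nitro-oleic acid (NO2-OA) over the last 4 weeks gave 1 library, NO2-OA 1. All groups share strain and cell preparation. By their deposited names, libraries numbered 1, NO2-OA 1 among them, and libraries numbered 2 form separate sets. What the sets stand for is not given, and NO2-OA is found in only 1 of them. Whether a library is 1 animal or a pool is not given in the sources used here, so spreads between libraries may be technical.

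Complex I takes electrons from NADH, complex III passes them from ubiquinol to cytochrome c, complex IV hands them to oxygen, and complex V (ATP synthase) uses the proton gradient they build to make ATP. Complex II, encoded wholly in the nucleus, lies outside the rule. Mitochondrial DNA encodes core subunits of complexes I, III, IV and V and is transcribed as long precursors that are then cut, so its genes share promoters, while each nuclear gene has its own. Lymphocytes at rest, monocytes and platelets all contain mitochondria; mature red cells do not.

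Promoters of nuclear members are known to carry sites for the factors NRF1, GABPA (an ETS factor) and YY1, so the letters of these sites were looked up in RefSeq promoters of the build GRCm38.p6, from 250 bases before to 50 after each start site. An entry was found for 75 of the 91 nuclear members. The NRF1 motif GCGCATGCG, on either strand, was found in 13.3% of these members (10 of 75), against 1.95% of all 27025 genes in the table and 3.77% of the 11735 among them that could be tested in B-like cells. The YY1 motif AAGATGGCG was found in 10.7% (8 of 75), against 1.64% and 3.23%. The ETS motif CCGGAAGT was found in 6.67% (5 of 75), between the 4.31% of all genes and the 8.41% of the genes tested. At least 1 motif was found in 22 members. Such matches describe the letters in this window alone.

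The last 120 bases before the start site are shown for 5 members to let the motifs be seen in place, with motif letters in capitals. Atp5g2 encodes the c subunit of the ATP synthase ring (chr15:102671048-102671167, minus strand), Atp5k a small ATP synthase subunit (chr5:108434400-108434519, minus strand) and Ndufa11 an accessory complex I subunit (chr17:56717642-56717761, plus strand); in all of these the NRF1 motif matched on both strands at overlapping places. Uqcrh encodes the hinge subunit of complex III (chr4:116075071-116075190, minus strand) and holds the ETS motif on the reverse strand. Atp5j encodes the coupling factor of ATP synthase (chr16:84834977-84835096, minus strand) and holds the YY1 motif.
Atp5g2: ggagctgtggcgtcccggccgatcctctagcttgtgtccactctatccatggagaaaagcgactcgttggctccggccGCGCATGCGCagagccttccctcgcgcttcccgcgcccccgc
Atp5k: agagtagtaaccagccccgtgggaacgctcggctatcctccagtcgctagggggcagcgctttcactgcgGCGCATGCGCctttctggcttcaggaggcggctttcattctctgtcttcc
Ndufa11: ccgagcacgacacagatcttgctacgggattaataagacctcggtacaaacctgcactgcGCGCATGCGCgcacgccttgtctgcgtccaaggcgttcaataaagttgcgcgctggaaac
Uqcrh: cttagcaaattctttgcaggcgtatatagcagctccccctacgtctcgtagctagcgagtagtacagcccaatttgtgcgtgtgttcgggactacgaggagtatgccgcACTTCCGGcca
Atp5j: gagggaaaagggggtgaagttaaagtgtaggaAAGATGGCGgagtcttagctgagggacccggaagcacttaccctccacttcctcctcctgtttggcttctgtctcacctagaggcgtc

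The matrices hold unique molecular identifiers (UMIs), each counting 1 captured RNA molecule, and between 8488 and 17997 barcodes per library. After filters, 7190 to 14774 cells were kept per library, and any pair of libraries shared at most 58 kept barcodes. Cells were grouped into classes by marker genes, without using the members. 5 classes had at least 50 cells in every library: B-like, T-like, classical monocyte-like, non-classical monocyte-like and platelet-like. Clusters were named from these marker lists, so the summed levels describe the labels and do not test them. The 8 platelet markers summed to 37605 to 46794 CPM in platelet-like cells and to at most 705 CPM in the other 4. The 8 B-cell markers summed to 7215 to 7981 CPM in B-like cells and to at most 273 CPM in the other 4. In non-classical monocyte-like cells their own markers summed to 3221 to 5330 CPM and classical markers to 1976 to 4146 CPM. There the classical sum was the larger in HFD + L-NAME 1, at 3592 against 3221 CPM. CPM stands for the UMIs of a gene scaled to a total of 1000000 UMIs per class and library. Because a 3′ end is counted once per molecule, CPM needs no scaling by gene length, but capture may differ between genes, so levels are compared between cells rather than between genes. Different clusters held most of some classes: T cluster 3 held 61.4% of T-like cells in NO2-OA 1 and 37.2% in HFD + L-NAME 1, against 2.86% to 5.56% in the other 3 libraries, and B cluster 1 held 44.3% of B-like cells in chow 1 and 4.57% in chow 2.

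The library chow 1 stood apart in nuclear members. In B-like cells 72 of 75 nuclear members with a mean of at least 20 CPM were lowest in chow 1 (96.0%, against 24.3% of all genes at that level). The same held for 72 of 75 in T-like cells, 69 of 75 in non-classical and 62 of 75 in classical monocyte-like cells, but for 12 of 50 in platelet-like cells (24.0%, against 20.2% of all genes). Atp5e, the epsilon subunit of ATP synthase, was at 151 CPM in B-like cells of chow 1 and at 331, 246, 314 and 233 CPM in chow 2, HFD + L-NAME 1, HFD + L-NAME 2 and NO2-OA 1. Cytosolic ribosomal protein genes moved with it, at 10.6% of B-like UMIs in chow 1 and 14.1% to 17.5% in the other 4 libraries; their part in the result was not tested. The low level in chow 1 was found within single clusters too: in B cluster 4 nuclear members took 0.616% of UMIs in chow 1 and 0.744% to 0.853% elsewhere.

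**Figure D1:**
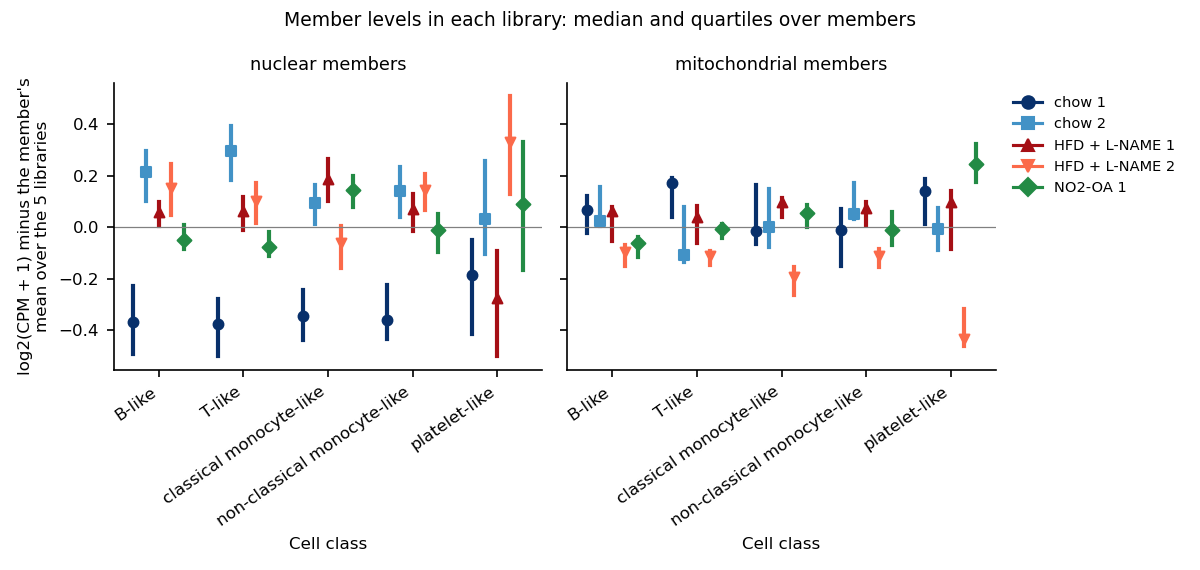
Level of members in each library, as log2(CPM + 1) minus the member's mean over the 5 libraries (y axis), by cell class (x axis), for nuclear (left) and mitochondrial members (right) with a mean of at least 20 CPM in that class. Points are medians over members and lines run between the quartiles; nuclear members in chow 1 lie below those of every other library in all classes but platelet-like cells.

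Nuclear and mitochondrial transcripts did not rank the cell classes alike. Of the 5 classes, classical monocyte-like cells, the inflammatory monocytes recruited to tissue, gave nuclear members the largest share of UMIs. It was 1.37% ± 0.18 (SD over 5 libraries), with 1.09%, 1.44%, 1.52%, 1.31% and 1.498% in chow 1, chow 2, HFD + L-NAME 1, HFD + L-NAME 2 and NO2-OA 1. Platelet-like cells had 0.911% ± 0.087, T-like 0.778% ± 0.12, non-classical monocyte-like 0.773% ± 0.088 and B-like 0.731% ± 0.10. The last 3 overlap in their ranges, and only the classical monocyte-like values lay above those of the other 4 classes in every library. Classical monocyte-like cells were also the deepest, with a median of 13717 UMIs per cell (mean over libraries). The other 4 classes had 2504 to 7974 UMIs, and the part of depth in the shares was not tested.

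Mitochondrial members were ordered otherwise. They took 5.34% ± 1.04 of UMIs in platelet-like cells, 4.08% ± 0.40 in T-like and 3.92% ± 0.24 in B-like cells, but 2.38% ± 0.24 in classical and 2.01% ± 0.12 in non-classical monocyte-like cells. In every library both monocyte classes were below both lymphocyte classes. The platelet-like values were 5.92%, 4.96%, 5.53%, 3.78% and 6.51% in the library order above; that of HFD + L-NAME 2 lay among the lymphocyte values. Cells with a mitochondrial share of 10% or more had been left out, and the mitochondrial members are the only mitochondrial genes of the matrices, so the filter acts on the measure itself. Among cells under 20%, those between 10% and 20% made up 14.7% and 12.7% of classical monocyte-like cells in chow 1 and chow 2, 2.13% and 2.63% in HFD + L-NAME 1 and 2, and 1.84% with NO2-OA. Of platelet-like cells they made up 18.0% in NO2-OA 1 (22 of 122) and 0.911% to 2.12% in the other libraries. The platelet-like value of 6.51% in NO2-OA 1 rests on 100 kept cells.

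The balance of the 2 genomes differed between the monocyte classes and the other 3. Mitochondrial UMIs per nuclear member UMI were 1.77 ± 0.37 in classical monocyte-like cells, 2.64 ± 0.42 in non-classical monocyte-like, 5.41 ± 1.43 in T-like, 5.47 ± 1.10 in B-like and 5.93 ± 1.35 in platelet-like cells (SD, n = 5 libraries). Classical monocyte-like cells had 2.42 in chow 1 and 1.59, 1.64, 1.55 and 1.63 in the other 4 libraries in order. B-like cells had 7.32 in chow 1 and 4.75, 5.44, 4.53 and 5.31. T-like cells had 7.74 in chow 1 and 4.04, 5.30, 4.48 and 5.51. Every library kept the order classical below non-classical below each lymphocyte class, and without chow 1 the means were 1.603, 2.47, 4.83 and 5.01 for classical, non-classical, T-like and B-like cells. The ratio of chow 1 to the mean of the other libraries ran from 1.19 in platelet-like to 1.602 in T-like cells.

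Smaller classes, present with at least 50 cells in only some libraries, reached further. Neutrophil-like cells, short-lived cells known to rely on glycolysis, had 0.469% ± 0.038 nuclear and 0.623% ± 0.14 mitochondrial UMIs in 4 libraries, a ratio of 1.34 ± 0.36. Erythroid-like cells, cells of the red lineage by their markers, had 0.174% ± 0.047 and 0.921% ± 0.44. Natural killer (NK)-like cells, with 0.950% ± 0.16 and 2.40% ± 0.26, had a ratio of 2.58 ± 0.56 in 4 libraries. Macrophage-like cells carrying body cavity markers, found in chow 2 and HFD + L-NAME 2, had ratios of 2.46 and 2.30. Their nuclear shares, from 1.20% to 1.23%, came near those of classical monocyte-like cells. So did an unnamed cluster scoring highest for classical monocyte and plasmacytoid dendritic markers, at 1.29% (1.14% to 1.41% over 4 libraries).

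**Figure D2:**
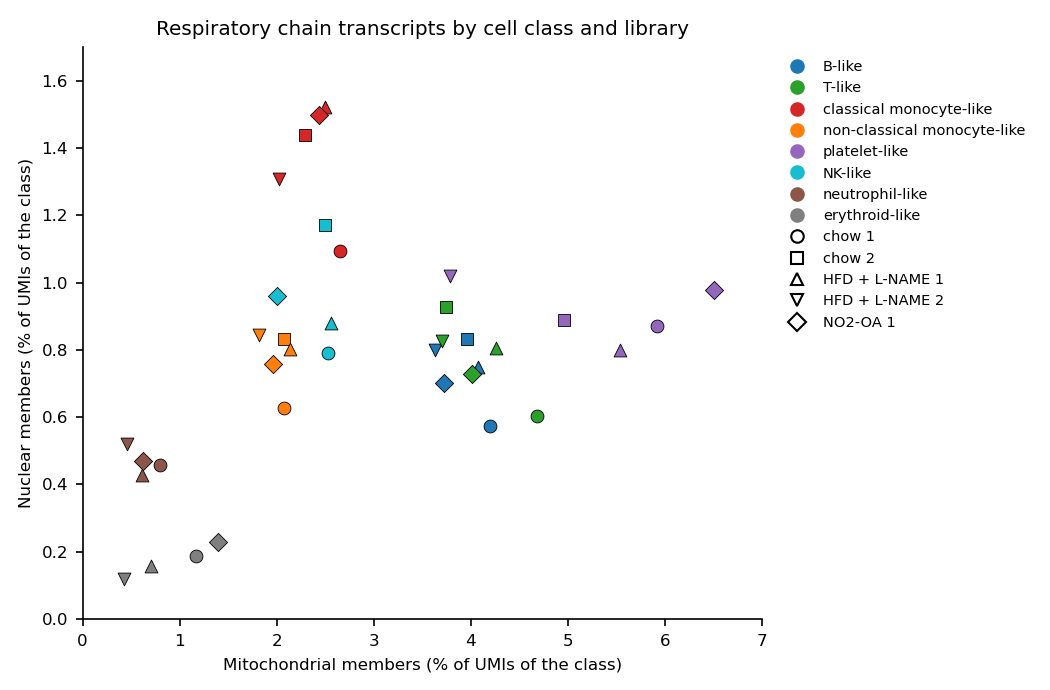
Share of UMIs from mitochondrial members (x axis, %) and from nuclear members (y axis, %), 1 point per library with at least 50 cells in 8 cell classes; colour marks the class and shape the library. Classical monocyte-like points lie between 1.09% and 1.52% nuclear, above those of the other 4 classes found in all libraries, while platelet-like points reach furthest right.

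Within classical monocyte-like cells the high nuclear level ran through all 4 complexes. Against B-like cells, 68 of 77 nuclear members with at least 20 CPM in either class were higher in all 5 libraries and 4 were lower, where 35.3% and 48.4% of all such genes were. All 8 complex III, all 12 complex IV and all 17 complex V members measured were higher, with median log2 ratios of 0.73, 0.95 and 0.99, and 30 of 36 complex I subunits were (median 0.89). All 13 mitochondrial members were lower in all 5 libraries, with a median of -1.05. Cytosolic ribosomal protein genes divided 27 higher and 21 lower of 82. These counts describe classes formed from expression and carry no test.

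Cox4i1, a nuclear subunit of complex IV, was at 667, 768, 762, 714 and 797 CPM in classical monocyte-like cells. In B-like cells it was at 268, 353, 317, 316 and 309 CPM, without overlap. Atp5l, the g subunit of ATP synthase, had 559 to 677 CPM against 217 to 302 CPM. Ndufb1, an accessory complex I subunit, had 291 to 527 CPM against 120 to 233 CPM, and Uqcrh 467 to 500.4 CPM against 258 to 327 CPM. The other most abundant members of each complex went the same way by their class means. The complex I subunits Ndufa6 and Ndufa2 had 282 against 133 and 196 against 112 CPM, the complex III subunits Uqcrq and Uqcr10 212 against 83.4 and 137 against 85.4 CPM, and the complex IV subunits Cox8a and Cox7c 536 against 306 and 471 against 296 CPM. Atp5e had 476 against 255 CPM, while Atp5a1, the alpha subunit of the catalytic head of ATP synthase, differed least, with 257 against 226 CPM and library ranges that overlapped (234 to 290 and 213 to 245 CPM). Ndufc2, an accessory subunit of the membrane arm of complex I, had 99.4 to 142 CPM against 30.6 to 49.2 CPM.

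Against non-classical monocytes, the patrolling cells of the vessel wall, 71 of 75 nuclear members were higher in all 5 libraries in the classical class and none was lower, against 30.3% higher and 41.2% lower of all genes. The median log2 ratio was 0.80. Of the mitochondrial members 5 were higher, 4 lower and 4 mixed (median 0.03): all 3 of complex IV were higher in every library (median 0.37), and of the 7 of complex I 1 was higher and 4 were lower (median -0.16). Ribosomal protein genes were higher as well, in 74 of 85 (median 0.62). T-like and B-like cells were closer to each other: 25 of 75 nuclear members were higher in T-like cells in all 5 libraries and 19 lower, against 29.3% and 48.5% of all genes, with a median of 0.02.

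Of the 78 nuclear members with at least 20 CPM in their highest class, 59 were highest in classical monocyte-like, 12 in platelet-like, 4 in B-like and 3 in T-like cells. The lymphocyte members were Ndufs1, Ndufa9, Ndufaf2 and Ndufaf8 in B-like cells, and Ndufa5, Ndufv3 and Ndufaf4 in T-like cells. Ndufs1, the largest subunit of complex I and a carrier of iron-sulfur clusters, was at 53.4, 42.1, 50.3, 48.1 and 49.5 CPM in B-like cells and at 23.9 to 35.2 CPM in classical monocyte-like cells. The assembly factor Ndufaf4 had 17.5 to 23.1 CPM in B-like and 20.05 to 26.9 CPM in T-like cells, against 7.67 to 11.8 CPM in classical and 4.80 to 9.58 CPM in non-classical monocyte-like cells. Ndufaf7, a methyltransferase of complex I assembly, went the other way, with 50.3 to 75.3 CPM in classical, 51.9 to 66.3 CPM in non-classical, 16.1 to 19.7 CPM in B-like and 10.01 to 15.5 CPM in T-like cells. These factors of complex I assembly thus peaked in different classes.

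**Figure D3:**
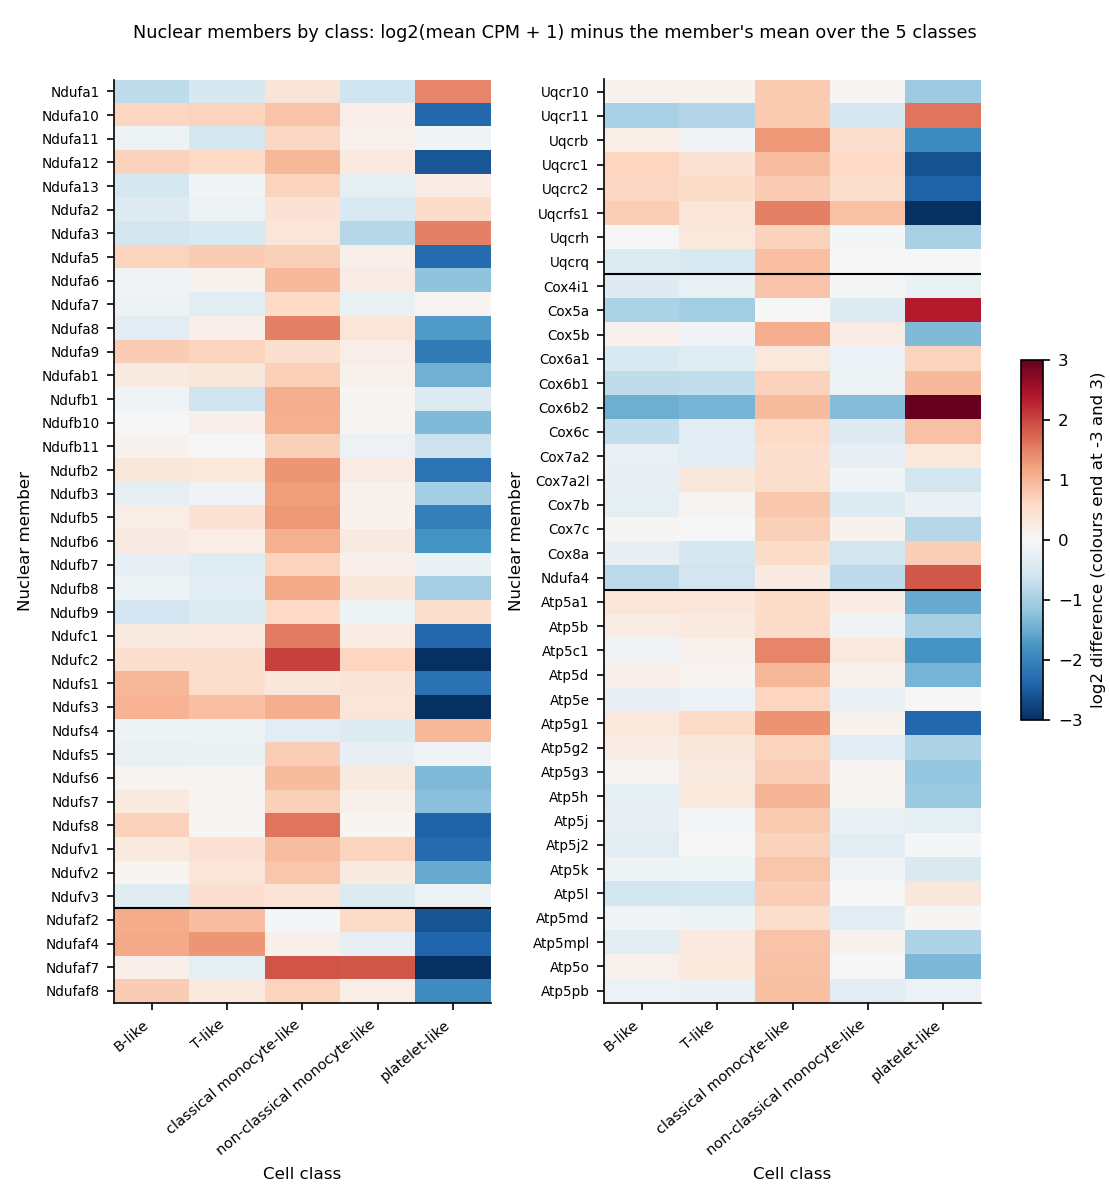
The level of 77 nuclear members with a mean of at least 20 CPM in their highest class (rows, in 2 panels, grouped by complex I subunits, complex I assembly factors, complex III, complex IV and complex V, divided by black lines) in the 5 classes (columns). Colour shows log2(mean CPM + 1) minus the member's mean over the classes; 58 rows peak in classical monocyte-like cells, while platelet-like cells hold both the darkest blue and the darkest red fields.

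Platelet-like cells showed a selective set. Platelets have no nucleus and carry RNA received from megakaryocytes. Of 76 nuclear members, 43 were lower and 16 higher than in B-like cells in all 5 libraries, against 78.0% lower and 15.7% higher of all genes. Complex IV stood on the other side: 8 of 13 members were higher and 2 lower (median log2 ratio 0.99), while complex I had 6 of 35 higher and 23 lower (median -1.47) and complex III 1 of 8 higher and 6 lower (median -1.76). Ribosomal protein genes were lower in 80 of 81 (median -3.84).

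Cox5a, a nuclear subunit of complex IV, was at 1264, 733, 1159, 979 and 1366 CPM in platelet-like cells in the library order above. In the other 4 classes it was between 89.0 and 254 CPM, so no value overlapped. Ndufa4, first assigned to complex I and now placed with complex IV, was at 1056, 673, 871, 623 and 642 CPM, against at most 332 CPM in the other 4 classes. Cox6b2, known as the testis isoform of subunit 6b, was at 70.9, 48.9, 69.4, 53.5 and 40.7 CPM (663 UMIs in all). It was at 8.25 to 14.5 CPM in classical monocyte-like cells and at most 2.00 CPM in the other 3 classes. Erythroid-like cells, a smaller class, had 7.42 to 18.5 CPM of Cox6b2. The common isoform Cox6b1 was present as well, at 304 to 439 CPM in platelet-like cells. Cox8a and Cox6c, small complex IV subunits, had 522 to 642 and 414 to 582 CPM, and reached at most 632 and 485 CPM in classical monocyte-like cells.

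Outside complex IV, the accessory complex I subunits Ndufa1, Ndufa2, Ndufa3 and Ndufs4 and the complex III subunit Uqcr11 were also highest in platelet-like cells. Ndufa1 had 260.1 to 366 CPM there and 42.4 to 174 CPM elsewhere. Ndufs4 was at 201 CPM in chow 1, 418 in chow 2, 226 in HFD + L-NAME 1, 339 in HFD + L-NAME 2 and 213 CPM in NO2-OA 1, against 90.8 to 138 CPM in the other classes. Uqcr11 had 188 to 267 CPM against 23.5 to 139.8 CPM.

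Other subunits of the same complexes were near the limit of detection in these cells. Uqcrfs1, the Rieske iron-sulfur protein without which complex III cannot pass electrons on, had 36 UMIs over the 10129588 UMIs of the class (3.13, 0, 1.32, 8.74 and 4.52 CPM), against 54.8 to 149 CPM in the other classes. Ndufs3 and Ndufs8, core subunits of complex I, had 14 and 34 UMIs, and Ndufc2 had 18. The assembly factors Ndufaf7, Ndufaf4 and Ndufaf2 had 5, 7 and 9 UMIs. The mean over libraries in the highest class was 178 times the platelet mean for Ndufaf7, 95.4 times for Ndufc2, 40.3 times for Ndufs3, 40.1 times for Uqcrfs1, 26.2 times for Ndufaf4, 24.1 times for Ndufaf2 and 21.2 times for Ndufs8. These ratios rest on few platelet UMIs and moved with single libraries. Without HFD + L-NAME 2 they were 339 for Ndufaf7, 179 for Ndufc2, 158 for Ndufs3, 64.4 for Uqcrfs1 and 42.7 for Ndufs8, and without chow 2 the ratio of Ndufaf4 was 39.7. Of these genes' highest and lowest classes, platelet-like was the lowest each time, and the highest for Cox6b2, at 44.4 times its B-like mean. Median depth per platelet-like barcode was 5239 and 4311 UMIs in chow 1 and HFD + L-NAME 1 and 857, 919 and 1192 in chow 2, HFD + L-NAME 2 and NO2-OA 1. Of the 8 classical monocyte markers, summed levels in platelet-like cells were 2958 to 5212 CPM, neutrophil markers were at 10.7 to 196 CPM and erythroid markers at 2342 to 9034 CPM; their part in these levels was not tested.

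A few members were hardly seen in any class. Ndufa4l2, Ndufb11b, Cox7a1, Cox4i2, Cox8b, Cox8c and Cox7b2 had a mean under 1 CPM in every class; most are paralogs known from hypoxic, muscle, lung or testis tissue. The highest of their class means were 0.670 CPM for Cox7a1 and 0.665 CPM for Cox8c. Another 6 members, Ndufb4, Ndufb4b, Ndufaf1, Ndufaf3, Ndufaf5 and Ndufaf6, stayed between 1 and 20 CPM. Ndufb4 and Ndufb4b, like Ndufb11 and Ndufb11b, are near-identical copies, so their split is uncertain.

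The make-up of the mitochondrial UMIs also set platelet-like cells apart. The complex I genes mt-Nd1, mt-Nd2 and mt-Nd3 together made up 3.59% of mitochondrial UMIs there (3.35%, 3.98%, 3.22%, 3.92% and 3.46% in the library order), against 13.6% in B-like, 13.1% in T-like, 14.1% in non-classical and 10.00% in classical monocyte-like cells. mt-Nd1 alone was at 1.59% to 2.19%, against means of 4.78% to 6.40% in the other classes. mt-Nd6, the single protein gene on the light strand, was at 0.049% against 0.213% to 0.338%. Not all mt-Nd genes went that way: mt-Nd4 was at 8.45% in platelet-like cells and 5.89% to 6.81% in the other 4 classes. The shares of mt-Cytb, of complex III, were 10.5% and 6.54% to 8.38%. In the 2 platelet-like clusters found at resolution 2, 1 of shallow and 1 of deeper barcodes, the summed share of mt-Nd1, mt-Nd2 and mt-Nd3 was 3.87% (3.01% to 5.19% over 5 libraries) and 3.71% (3.20% to 4.25% over 4). In chow 1 it was 5.19% and 3.33%. Every value lay below 8.70%, the lowest library in any of the other 4 classes. Of the smaller classes, neutrophil-like cells came nearest, at 6.85% to 8.39%, and erythroid-like cells had 8.52% to 11.4%. The mt-Nd4 share of neutrophil-like cells, 6.39% to 8.17%, overlapped that of platelet-like cells, 8.09% to 8.58%.

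In CPM, mt-Co1, which encodes the catalytic subunit of complex IV, was at 12885, 11448, 9015, 7803 and 14716 CPM in platelet-like cells and at 3215 to 8765 CPM in the other classes. Classical monocyte-like cells had 20.02% mt-Co1 and 15.8% mt-Co2 against 16.96% and 13.4% in B-like cells, and 3.56% mt-Nd2 against 5.10%. Non-classical monocyte-like cells had 16.998% mt-Co1, 14.9% mt-Co2 and 5.22% mt-Nd2. By class means mt-Atp6 made up 19.4% to 21.7% and mt-Co3 16.3% to 18.2%. mt-Nd5 was at 2.71% in B-like cells (2.43% to 2.83% over libraries) and at 1.77% in classical monocyte-like cells (1.54% to 1.89%), without overlap, and mt-Nd4l at 0.372% in platelet-like cells and 0.636% to 0.838% in the other 4 classes. mt-Atp8 and mt-Atp6, and mt-Nd4l and mt-Nd4, each share 1 overlapping transcript, so the counts of the smaller partners are uncertain; mt-Atp8 took 0.453% to 0.570% of mitochondrial UMIs in the 5 classes.

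**Figure D4:**
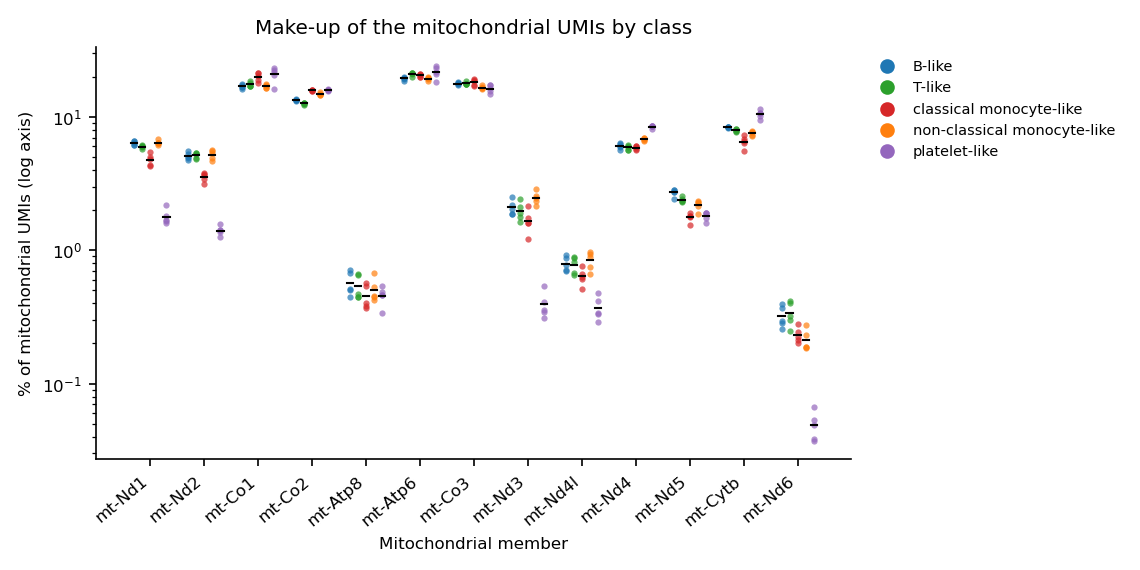
Share of each of the 13 mitochondrial members (x axis) in all mitochondrial UMIs of a class (y axis, %, log scale); points are the 5 libraries, colours the classes and black bars the means. In platelet-like cells mt-Nd1, mt-Nd2, mt-Nd3, mt-Nd4l and mt-Nd6 lie below every point of the other classes, and mt-Nd4 and mt-Cytb above.

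Setting HFD + L-NAME against chow asks whether the regimen changed these transcripts within a class. No member passed edgeR's quasi-likelihood test at a Benjamini-Hochberg false discovery rate of 0.05 in any of the 5 classes, and none had an unadjusted p under 0.05 (edgeR; DESeq2 also called 0). Of all genes tested, edgeR called 0.0% in B-like, 0.0118% in T-like and 0.0% in classical monocyte-like, non-classical monocyte-like and platelet-like cells, and an unadjusted p under 0.05 was found for 1.28%, 1.58%, 3.97%, 2.85% and 1.28%. With 2 libraries against 2, an exact two-sided permutation test of 1 value cannot give a p below 0.33. In these bulk sums fewer transcripts per cell and a change in the kinds of cells within a class cannot be told apart.

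Most nuclear members nevertheless had fitted log2 fold changes slightly above 0. In B-like cells 77 of 85 tested did (median 0.15), in T-like 66 of 84 (0.10), in classical monocyte-like 79 of 83 (0.21), in non-classical monocyte-like 75 of 82 (0.18) and in platelet-like cells 62 of 73 (0.27). Over all genes tested the medians lay between -0.01 and 0.02. Mitochondrial medians were -0.09, -0.06, -0.09, -0.09 and -0.03. The medians of the nuclear members moved with chow 1. Between libraries of replicate 1 they were 0.44, 0.53, 0.57, 0.42 and 0.11, and between those of replicate 2 they were -0.08, -0.22, -0.15, 0.01 and 0.35. Without chow 1 the fitted medians were -0.10, -0.23, 0.02, -0.02 and 0.39, and without chow 2 they were 0.49, 0.53, 0.43, 0.43 and 0.19. Leaving out chow 1 thus turned the sign in both lymphocyte classes and in non-classical monocyte-like cells and left a median near 0 in classical monocyte-like cells. The median log2 difference of chow 2 over chow 1 was 0.56 in B-like, 0.72 in T-like, 0.44 in classical and 0.41 in non-classical monocyte-like cells, each above the fitted median between groups in size. In platelet-like cells it was -0.26. Ribosomal protein genes had fitted medians of 0.16, 0.11, 0.06, 0.15 and -0.02 over the same classes. The 7 erythroid markers were higher in both HFD + L-NAME libraries than in both chow libraries in every class. They summed to 77.8 and 35.6 CPM in chow 1 and 2 and to 2825 and 5224 CPM in HFD + L-NAME 1 and 2 in non-classical monocyte-like cells, to 90.6 and 66.1 against 478 and 645.5 CPM in T-like cells, and to 104 and 53.6 against 292 and 473 CPM in B-like cells. In classical monocyte-like cells the sums were 81.02 and 36.8 against 159 and 282 CPM, and in platelet-like cells 2342 and 2945 against 4297 and 5196 CPM. Their part in the medians was not tested.

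Libraries of the 2 groups did not overlap for 14 nuclear members higher on the regimen in B-like cells, where 11.0% of all genes were. There were 4 such members in T-like cells (11.6% of all genes), 8 in classical (14.2%) and 26 of 82 in non-classical monocyte-like (14.4%; 51 of 88 ribosomal protein genes were as well), and 18 of 73 in platelet-like cells (12.4%). Counting both directions there were 14, 7, 9, 27 and 19 such nuclear members, beside 23.1%, 24.2%, 29.5%, 28.2% and 25.0% of all genes. In B-like cells none was lower on the regimen without overlap, where 12.1% of all genes were. Ndufs4, a subunit whose loss in mice gives a Leigh-like disease, was higher without overlap in 4 classes once scaled by TMM. So was the complex IV subunit Cox7c, and how many of all genes were was not counted. Ndufs4 was picked after its values were seen, and the classes share libraries. It was at 90.8 and 106 CPM in chow and 118 and 114 CPM in HFD + L-NAME in classical monocyte-like cells, and at 95.2 and 96.7 against 107.2 and 107.1 CPM in non-classical monocyte-like cells. None of these differences passed edgeR.

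The smallest p of a nuclear member in this comparison belonged to Ndufs3, a core subunit of complex I, in non-classical monocyte-like cells. It was at 20.9 and 24.6 CPM in chow and at 28.6 and 38.4 CPM in HFD + L-NAME, a log2 fold change of 0.55 ± 0.25 (SE; edgeR with Benjamini-Hochberg adjustment, adjusted p = 0.999). In classical monocyte-like cells Ndufs5, an accessory complex I subunit, was at 39.9 and 70.7 CPM in chow and 94.1 and 64.9 CPM on the regimen (0.57 ± 0.33). Cox6b2 had the smallest p below 0 in that class, at 12.9 and 14.5 CPM against 10.1 and 8.25 CPM (-0.51 ± 0.35). In B-like cells Ndufaf4 was at 17.5 and 18.6 CPM in chow and at 22.2 and 23.1 CPM on the regimen (0.34 ± 0.20). The adjusted p was at least 0.999 for every member in this comparison. T-like cells had Ndufa9 with 0.33 ± 0.24 and Ndufaf7 with -0.31 ± 0.26 as their smallest p in either direction. In platelet-like cells Ndufs8 had 1.58 ± 0.85, from 34 UMIs in the whole class, and Ndufs1 had -0.85 ± 0.77. Among mitochondrial members mt-Nd6 in B-like cells (-0.18 ± 0.23) and mt-Atp8 in non-classical monocyte-like cells (-0.25 ± 0.23) had the smallest p below 0; both were above 0 without chow 2, at 0.09 and 0.07.

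**Figure D5:**
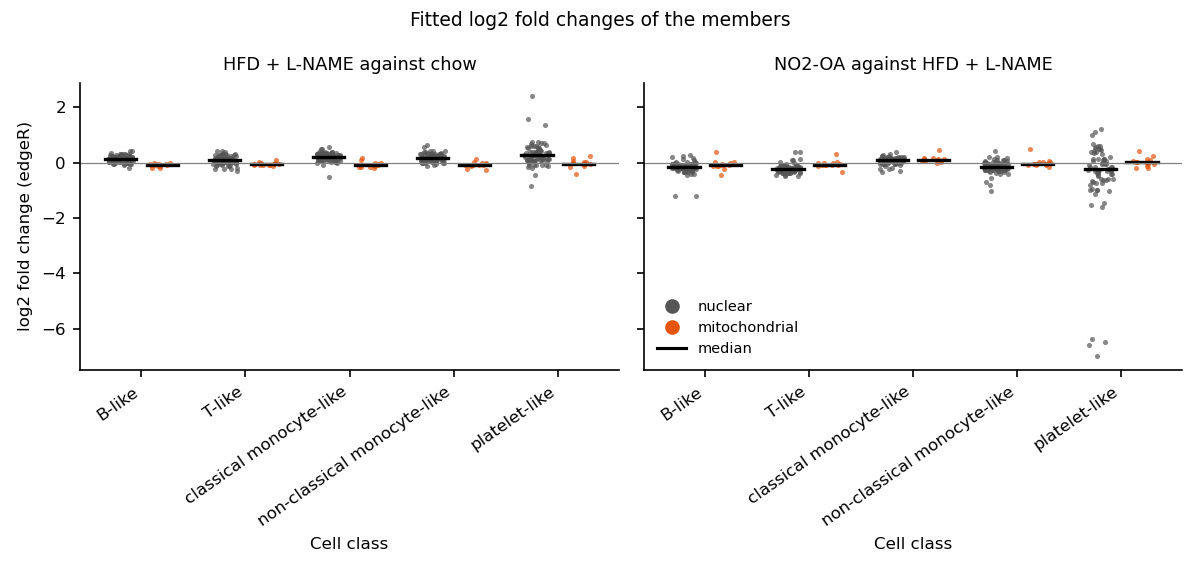
Fitted log2 fold change (y axis) of each tested member in the 5 classes (x axis) for HFD + L-NAME against chow (left) and NO2-OA against HFD + L-NAME (right); grey points are nuclear and orange points mitochondrial members, black bars are medians. Nuclear medians on the left lie between 0.10 and 0.27, and 4 platelet-like points near the bottom on the right are members with no UMI in NO2-OA 1.

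NO2-OA 1 was compared with both HFD + L-NAME libraries; with 1 library in the arm, its spread was assumed to be that of the other groups. No member passed edgeR in any class, 0 had an unadjusted p under 0.05, and DESeq2 called 0. In a fit that took the replicate number as a block, Ndufa4 (log2 fold change -1.11 ± 0.25, edgeR adjusted p = 0.00205) and Atp5l (-0.86 ± 0.26, edgeR adjusted p = 0.0425) passed in platelet-like cells. Of all genes edgeR called 0.0%, 0.0%, 0.0169%, 0.0% and 0.0317% in B-like, T-like, classical monocyte-like, non-classical monocyte-like and platelet-like cells, and an unadjusted p under 0.05 was found for 1.61%, 1.48%, 2.0%, 1.92% and 5.66%. These shares are from the fit without a block. With the block, edgeR called far more genes in platelet-like cells, as given with the alternatives below. A call there was thus not particular to the members. This comparison shares the HFD + L-NAME libraries with the one above. Nuclear members had medians of -0.17 in B-like (9 of 85 above 0), -0.24 in T-like (6 of 84), 0.08 in classical monocyte-like (66 of 83), -0.16 in non-classical monocyte-like (13 of 82) and -0.24 in platelet-like cells (25 of 73), where all genes had a median of -0.22. Mitochondrial medians were -0.07, -0.07, 0.11, -0.04 and 0.04. In the fit with the number as a block, the nuclear medians were -0.0059 in B-like, -0.051 in T-like and -0.036 in non-classical monocyte-like cells. The 8 platelet markers were lower in NO2-OA 1 than in HFD + L-NAME 1 and 2 in these classes, at 40.8 against 447 and 206 CPM in B-like, 42.7 against 340 and 219 in T-like and 44.97 against 323 and 298 CPM in non-classical monocyte-like cells. Their part in the medians was not tested.

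Against each HFD + L-NAME library alone the nuclear medians kept their sign in B-like cells (-0.13 and -0.17 for libraries 1 and 2), T-like cells (-0.24 and -0.19) and non-classical monocyte-like cells (-0.14 and -0.16). In classical monocyte-like cells they were -0.06 and 0.24. Set against chow, the B-like level in NO2-OA 1 lay between that of chow 1 and chow 2, with medians of 0.31 and -0.27. Ribosomal protein genes had fitted medians of -0.14 in B-like and -0.33 in T-like cells in the same comparison, and T cluster 3 was held mainly by NO2-OA 1, as given above; whether either bears on the nuclear members was not tested. Erythroid markers summed to 2397 CPM in classical monocyte-like cells of NO2-OA 1 and to 36.8 to 282 CPM in the other libraries.

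mt-Nd6 had the smallest p among the members above 0 in 3 classes. Cox6b2 in B-like cells was at 1.54 and 1.53 CPM in the HFD + L-NAME libraries, against 0.680 CPM with NO2-OA (-1.19 ± 0.59). Uqcr11 in non-classical monocyte-like cells was at 48.4 and 74.7 against 36.1 CPM (-0.79 ± 0.43). mt-Nd6 was at 119 and 104 CPM in the HFD + L-NAME libraries, against 147 CPM with NO2-OA, in B-like cells (0.38 ± 0.28), at 52.6 and 45.4 against 68.0 CPM in classical monocyte-like cells (0.47 ± 0.29) and at 40.2 and 33.6 against 53.8 CPM in non-classical monocyte-like cells (0.50 ± 0.28). Ndufaf7 had the smallest p above 0 in T-like cells (0.39 ± 0.31) and below 0 in classical monocyte-like cells (-0.32 ± 0.31), and mt-Atp8 had -0.35 ± 0.28 in T-like cells. Ndufb5, an accessory complex I subunit, was at 5.92 and 15.9 CPM against 27.1 CPM in platelet-like cells (1.11 ± 0.77). In platelet-like cells Ndufa8, Ndufaf3, Uqcrc1 and Ndufs8 were at 0 in NO2-OA 1, whose platelet-like cells held 221048 UMIs, so that a count of 0 allows up to 13.6 CPM. In the HFD + L-NAME libraries these genes were at 3.62 and 14.9, 7.23 and 4.11, 2.96 and 9.77, and 2.63 and 9.26 CPM, so that only Ndufa8 in HFD + L-NAME 2 lay above that limit and no difference was detectable at this depth.

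Genes that work beside the members did not pass the test either. Among 8 genes of complex II, 2 of cytochrome c and c1, 27 further assembly factors, 22 genes of mitochondrial DNA and RNA, 9 regulators, 13 of the citric acid cycle, 7 carriers and 78 of the mitochondrial ribosome, edgeR called 0 in either direction in both comparisons and all 5 classes. Between HFD + L-NAME and chow, mitochondrial ribosomal proteins had a median of 0.19 in B-like cells (69 of 78 above 0) and 0.21 in classical monocyte-like cells (62 of 78), and complex II had 0.05 and 0.10. Mrps28, a protein of the small mitochondrial ribosomal subunit, had a log2 fold change of 2.23 in classical monocyte-like cells with an edgeR adjusted p of 0.508. Across classes, Cycs, the electron carrier cytochrome c, had a mean of 116 CPM in classical monocyte-like, 74.6 in non-classical, 55.1 in B-like, 51.7 in T-like and 6.06 CPM in platelet-like cells. Sdha, the flavoprotein of complex II, did not peak in classical monocytes, at 50.1 CPM there and 68.6 in non-classical, 64.8 in B-like, 57.7 in T-like and 13.7 CPM in platelet-like cells. Mrpl33, of the large mitochondrial ribosomal subunit, was at 403 CPM in classical monocyte-like and 51.1 CPM in B-like cells and 8.21 CPM in platelet-like cells. Polg2, the accessory subunit of the mitochondrial DNA polymerase, was highest in T-like cells, at 116 CPM against 42.9 in B-like and 11.98 CPM in classical monocyte-like cells. Slc25a3, the phosphate carrier, had 328 CPM in classical monocyte-like and 236 CPM in B-like cells, while Ogdh, of the citric acid cycle, had 75.9 and 101 CPM and the factor Yy1 127 and 147 CPM. Cox17, a copper chaperone of complex IV, was highest in platelet-like cells at 219.9 CPM against 148.8 in classical monocyte-like and 105 CPM in B-like cells.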

How the data were processed

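Single-cell RNA libraries (10x 3′ v3.1, per the labels' protocols) were deposited as matrices of UMI counts made by the authors with Cell Ranger 7.1.0, per the file headers. The build was mm39 per the submitters' processing notes; the annotation release is not given in the sources used here. Barcodes with at least 200 genes and a mitochondrial share under 10% were kept, and predicted doublets (6.51% to 14.3% per library) were left out. Cells were clustered (scanpy 1.11.5, leidenalg 0.10.2, 2000 variable genes, 40 components, 20 neighbours, resolution 1) without the members, and clusters were named from marker lists with score thresholds set after the data were seen. Between 0.0707% and 1.59% of kept cells stayed unnamed.

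Counts were summed per library and class, from 221048 to 39701312 UMIs, and tested with edgeR 4.0.16 (filterByExpr, TMM, quasi-likelihood, all 5 libraries sharing 1 spread, Benjamini-Hochberg over all genes of the class, threshold 0.05). The fit was tested on simulated T-like counts alone, with changes of at least 2-fold. That does not measure its power for smaller changes or in the other classes. Levels are CPM without TMM scaling. Values after ± are the SD over libraries or, for log2 fold changes, the SE from edgeR. Limits for counts of 0 (3 counts) cover counting error only. Members and lists were chosen with earlier results of these data known. Named members are the 3 most abundant per complex, all mitochondrial members, the smallest p in each direction, the 8 largest ratios of class means and those under 1 CPM in every class; other members named were chosen after their values were seen. Alternatives were DESeq2 1.42.0 and its size factors, no count filter, mitochondrial genes left out of totals, mitochondrial limits of 5% and 20%, doublets kept, resolution 2, thinned counts, a replicate block, each library left out and, chosen after seeing the data, B-like cells without 1 cluster and T-like cells divided into CD4 and CD8. By their file names, libraries numbered 1 (NO2-OA 1 among them) and libraries numbered 2 form separate sets. The values of 1 member are not reported here.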

Additional observations from a re-analysis of the deposited data

How the results depend on the processing

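Of 154 counts of members called under an alternative, 153 stayed at 0. With the replicate number as a block, 2 members passed edgeR for NO2-OA against HFD + L-NAME in platelet-like cells, Ndufa4 (-1.11 ± 0.25, adjusted p = 0.00205) and Atp5l (-0.86 ± 0.26, adjusted p = 0.0425), among 176 genes called there; the cause was not tested. Of the 6311 genes tested in platelet-like cells, 86 were members. The labels do not say that a number marks a shared batch. The deposited names nevertheless place numbers 1 and 2 in separate sets. Same-numbered deviations correlated at 0.08 to 0.40 across genes over the 5 classes, with 2 pairs. Across the members alone they correlated at 0.72 in B-like, 0.50 in T-like, 0.31 in non-classical monocyte-like and 0.42 in platelet-like cells. In classical monocyte-like cells the value was -0.14. The same block gave nuclear medians of -0.0059 in B-like, -0.051 in T-like and -0.036 in non-classical monocyte-like cells for that comparison. A mitochondrial limit of 5% gave a platelet-like ratio of 3.87 over 4 libraries, below 4.61 in T-like and 5.01 in B-like cells over 5. Mitochondrial shares were 3.58% in B-like, 3.56% in T-like and 3.43% in platelet-like cells, the last again over 4 libraries. Platelet-like cells were thus the lowest of these 3 classes in both measures, where at 10% they were the highest. The nuclear median for NO2-OA in T-like cells was -0.19. Fewer cells with high shares enter by the construction of this limit. With doublets kept, the non-classical monocyte-like mitochondrial share was 2.22%, and the NO2-OA nuclear medians were -0.22 in non-classical monocyte-like and -0.69 in platelet-like cells; thinned counts gave -0.041 in platelet-like cells. The cause was not tested. Leaving out 1 library at a time moved the mitochondrial medians for HFD + L-NAME over -0.17 to 0.026 for B-like, -0.19 to 0.064 for T-like and -0.70 to 0.43 for platelet-like cells, where in the last leaving out HFD + L-NAME 1 and 2 gave the lowest and the highest value. It moved the NO2-OA nuclear medians over -0.18 to -0.13 for B-like, -0.27 to -0.19 for T-like and -0.32 to -0.22 for platelet-like cells. Without chow 2, the log2 fold change on the regimen was 0.094 for mt-Nd6 in B-like cells and 0.072 for mt-Atp8 in non-classical monocyte-like cells, and without chow 1 it was -0.40 and -0.51; 279 other values of single members kept their direction and side. Not run were the 5% limit in platelet-like tests and, for NO2-OA, leaving out its only library. Platelet-like depth limits members below about 13.6 CPM in NO2-OA 1.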
